A study of Homo sapiens with 16 samples.

Results

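The integrated stress response and the unfolded protein response were followed through 35 genes, listed by name and taken from the 26258 genes of the deposited expression table. Of these, 20 are targets of the transcription factor ATF4, including ATF4 itself, and are called the ATF4 arm. The other 15 are sensors, chaperones and degradation factors of the endoplasmic reticulum (ER) and are called the ER arm. All 35 genes passed the filter of at least 1 CPM (reads of the gene divided by the library total and scaled to a common size) in 2 or more libraries and were tested among 15019 genes.

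Huh7 and Hep3B are established cell lines of human hepatocellular carcinoma (HCC), and RNA of both was sequenced in 16 libraries, with 2 replicates in each of 8 groups. Sorafenib is a kinase inhibitor given to patients with HCC. For each line there were parental cells and cells labelled DMSO, both labelled untreated, IR cells selected under rising Sorafenib concentrations, and CR cells selected under a steadily high one. IR and CR libraries of both lines carry the label of 7 µM Sorafenib, so that resistance and the presence of the drug cannot be told apart in any comparison with parental cells. Each resistant group comes from 1 selected cell line, how the DMSO cells were made is not given in the sources used here, and the culture notes name the Huh7 lines alone. The methods speak of biological triplicates and the deposited table holds 2 libraries a group, so the p-values below measure the spread between these libraries, which may be technical.

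Phosphorylation of the translation factor eIF2α, which kinases carry out upon lack of amino acids, ER stress, heme shortage or double-stranded RNA, slows protein synthesis in general and favours the translation of ATF4. ATF4 then switches on genes for amino acid synthesis and uptake together with the stress factors DDIT3 (CHOP) and TRIB3. Misfolded proteins in the ER are sensed by IRE1 (the product of ERN1), ATF6 and PERK. IRE1 and ATF6 raise ER chaperones through XBP1 and the cleaved form of ATF6, whereas PERK is one of the eIF2α kinases and feeds into ATF4. Hepatocytes secrete large amounts of plasma proteins and hold a large ER.

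The promoter sequences of members from each arm are shown because the arms differ in the elements they carry. Sequences upstream of the annotated start were found for 31 of the 35 genes (RefSeq, GRCh38.p14), and none for EIF4EBP1, PSPH, SHMT2 and PYCR1. Each line gives the 250 bases before the start site, 5′ to 3′ on the strand of the gene, for HSPA5 (chr9:125241344-125241593, minus strand), HSP90B1 (chr12:103930160-103930409, plus strand), HYOU1 (chr11:119057206-119057455, minus strand), HERPUD1 (chr16:56931892-56932141, plus strand), ASNS (chr7:97872409-97872658, minus strand) and CHAC1 (chr15:40953221-40953470, plus strand). Capitals mark the elements named below on either strand.
HSPA5: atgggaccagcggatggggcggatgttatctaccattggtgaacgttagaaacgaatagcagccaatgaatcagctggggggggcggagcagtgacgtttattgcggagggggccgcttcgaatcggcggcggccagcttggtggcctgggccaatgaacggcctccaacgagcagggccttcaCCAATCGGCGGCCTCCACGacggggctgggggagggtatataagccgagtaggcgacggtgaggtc
HSP90B1: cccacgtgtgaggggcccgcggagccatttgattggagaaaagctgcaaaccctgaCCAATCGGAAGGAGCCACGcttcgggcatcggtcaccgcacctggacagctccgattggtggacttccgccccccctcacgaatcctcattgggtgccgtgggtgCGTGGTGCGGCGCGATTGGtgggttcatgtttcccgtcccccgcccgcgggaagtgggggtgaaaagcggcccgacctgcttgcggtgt
HYOU1: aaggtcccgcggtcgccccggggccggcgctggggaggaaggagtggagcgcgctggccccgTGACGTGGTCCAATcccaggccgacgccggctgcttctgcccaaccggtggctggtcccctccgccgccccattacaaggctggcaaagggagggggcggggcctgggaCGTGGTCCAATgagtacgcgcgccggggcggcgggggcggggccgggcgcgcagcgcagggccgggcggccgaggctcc
HERPUD1: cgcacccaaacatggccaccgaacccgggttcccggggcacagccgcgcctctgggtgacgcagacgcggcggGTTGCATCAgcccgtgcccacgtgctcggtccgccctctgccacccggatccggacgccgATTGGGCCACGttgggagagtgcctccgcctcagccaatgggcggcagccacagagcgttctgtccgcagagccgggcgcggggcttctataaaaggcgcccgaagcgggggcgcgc
ASNS: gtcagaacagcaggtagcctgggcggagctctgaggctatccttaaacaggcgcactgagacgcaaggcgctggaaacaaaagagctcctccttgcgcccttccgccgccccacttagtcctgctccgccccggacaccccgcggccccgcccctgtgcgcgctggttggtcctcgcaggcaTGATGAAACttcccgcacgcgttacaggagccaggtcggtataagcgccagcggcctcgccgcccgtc
CHAC1: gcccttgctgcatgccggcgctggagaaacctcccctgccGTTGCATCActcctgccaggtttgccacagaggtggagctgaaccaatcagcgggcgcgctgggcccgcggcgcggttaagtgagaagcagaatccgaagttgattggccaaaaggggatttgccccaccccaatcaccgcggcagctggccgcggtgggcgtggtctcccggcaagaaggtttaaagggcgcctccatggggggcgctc

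Both strands of the 250 bases before and the 50 bases after the start site were searched for 4 words. Every match in a member lay before the start site. The ER stress element, bound by ATF6 together with NF-Y, was written as CCAAT, 9 bases of any kind and CCACG. ER stress element II was written as ATTGG, 1 base of any kind and CCACG. Either form was present in 8 of the 15 promoters of the ER arm (53.3%), in 0 of the 16 of the ATF4 arm and in 26 of 11742 promoters of genes tested (0.221%). In HSPA5 the element lay at -66 to -48, counted from the base before the start site as -1. HSP90B1 held 2 such elements, at -194 to -176 and -89 to -71, and HYOU1 held 2 of the second form, at -185 to -175 and -79 to -69. The others were XBP1, CALR, CANX, SDF2L1 and HERPUD1.

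The composite C/EBP-ATF element, written as TGATGNAAN, was present in 3 of the 16 promoters of the ATF4 arm (18.8%), in 1 of the 15 of the ER arm (6.67%) and in 1.86% of the promoters of genes tested. It lay at -68 to -60 in ASNS, at -210 to -202 in CHAC1 and at -191 to -183 in ATF3. The promoter of HERPUD1 held both kinds, the C/EBP-ATF element at -177 to -169 and ER stress element II at -117 to -107. The XBP1 element, TGACGTGN, was present in ALDH18A1 of the ATF4 arm and in HYOU1 of the ER arm, where it overlaps ER stress element II, and in 2.44% of the promoters of genes tested. These matches describe letters in a short window and no binding was measured.

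Recovered library totals ranged from 46613302 to 76860251 reads. A gene was called higher or lower where limma, fitted to log2(CPM + 1) in all 16 libraries, gave an adjusted p under 0.05 and the log2 fold change reached 0.58 in size. Values for the 4 resistant groups are given in 1 order throughout, IR before CR and Huh7 before Hep3B, each against parental cells of its own line. Changes are on that scale, which understates those of genes near or below 1 CPM. Over all genes tested, log2 fold changes had a median of 0.19, 0.066, 0.061 and 0.11, and with TMM factors the Huh7-IR median was 0.040. The numbers of all genes called higher and lower moved with this scaling, from 4666 and 2670 to 3838 and 3436 in Huh7-IR cells. Hepatocyte secreted proteins, which mark the labelled origin of the lines, summed to 13453 to 18659.5 CPM in Huh7 parental cells and 20944 to 26137 CPM in Hep3B parental cells over 15 genes. They summed to 111 to 533 CPM and 1436 to 3015 CPM in IR and CR cells of Huh7 and to 3879.9 to 11452 CPM and 2382 to 3799.7 CPM in those of Hep3B, and what part these lower sums have in the changes of either arm was not tested. In bulk RNA, fewer cells of a kind and less RNA per cell cannot be told apart. Of 3 leukocyte markers tested, 1, 1, 1 and 1 were called higher and 2, 1, 0 and 0 lower. Averaged over the 4 resistant groups, log2 fold changes were 2.73 for CD68, -0.34 for CD14 and -0.40 for PTPRC. PTPRC stayed at or below 1.32 CPM in every library, and the part of CD68 in the changes of either arm was not tested. The shares of all genes called in each comparison stand in the next paragraph. Of 5 fibroblast markers tested, 4, 4, 1 and 1 were called higher and 1, 1, 1 and 0 lower, and the list summed to 284 to 337 CPM in Huh7 parental and 313 to 338 CPM in Huh7-IR cells, to 491 to 772 CPM in Huh7-CR cells, and to 27.7 to 37.1, 33.2 to 86.8 and 68.6 to 87.0 CPM in parental, IR and CR cells of Hep3B. COL1A1 was higher in all 4 resistant groups, and COL1A2, COL3A1 and PDGFRB were higher in both of Huh7. LUM was lower in both of Huh7 (-2.90 and -0.87) and PDGFRB in Hep3B-IR cells (-1.35). The part of these markers in the changes of either arm was not tested either. Replicates of a group were least alike in Huh7-DMSO and Huh7-IR cells, where the SD of their difference in log2(CPM + 1) across genes was 0.571 and 0.566, against 0.236 to 0.310 in the other groups.

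The ATF4 arm was higher in resistant cells of both lines. Called higher were 17, 17, 16 and 18 of its 20 genes, against 31.1%, 20.9%, 15.7% and 20.0% of all genes tested. None was called lower in any of these 4 comparisons, where 17.8%, 13.6%, 11.4% and 12.3% of all genes were. The median log2 fold change of the arm was 2.12, 1.49, 1.54 and 1.96. In the ER arm, 4, 1, 4 and 7 of 15 genes were called higher and 2, 4, 2 and 0 lower, with medians of 0.16, 0.021, -0.034 and 0.57. IR and CR cells of a line share their parental libraries, so their values are given side by side and their likeness is not read as a result. Without Huh7-CR replicate 1, 11 genes of the ATF4 arm were called higher in Huh7-CR cells, and without Huh7-CR replicate 2, 2 genes of the ER arm were higher and 2 lower there. In Hep3B-IR cells, 2 ER arm genes were higher without parental replicate 2, and 1 was lower without either parental replicate or IR replicate 1.

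**Figure D1:**
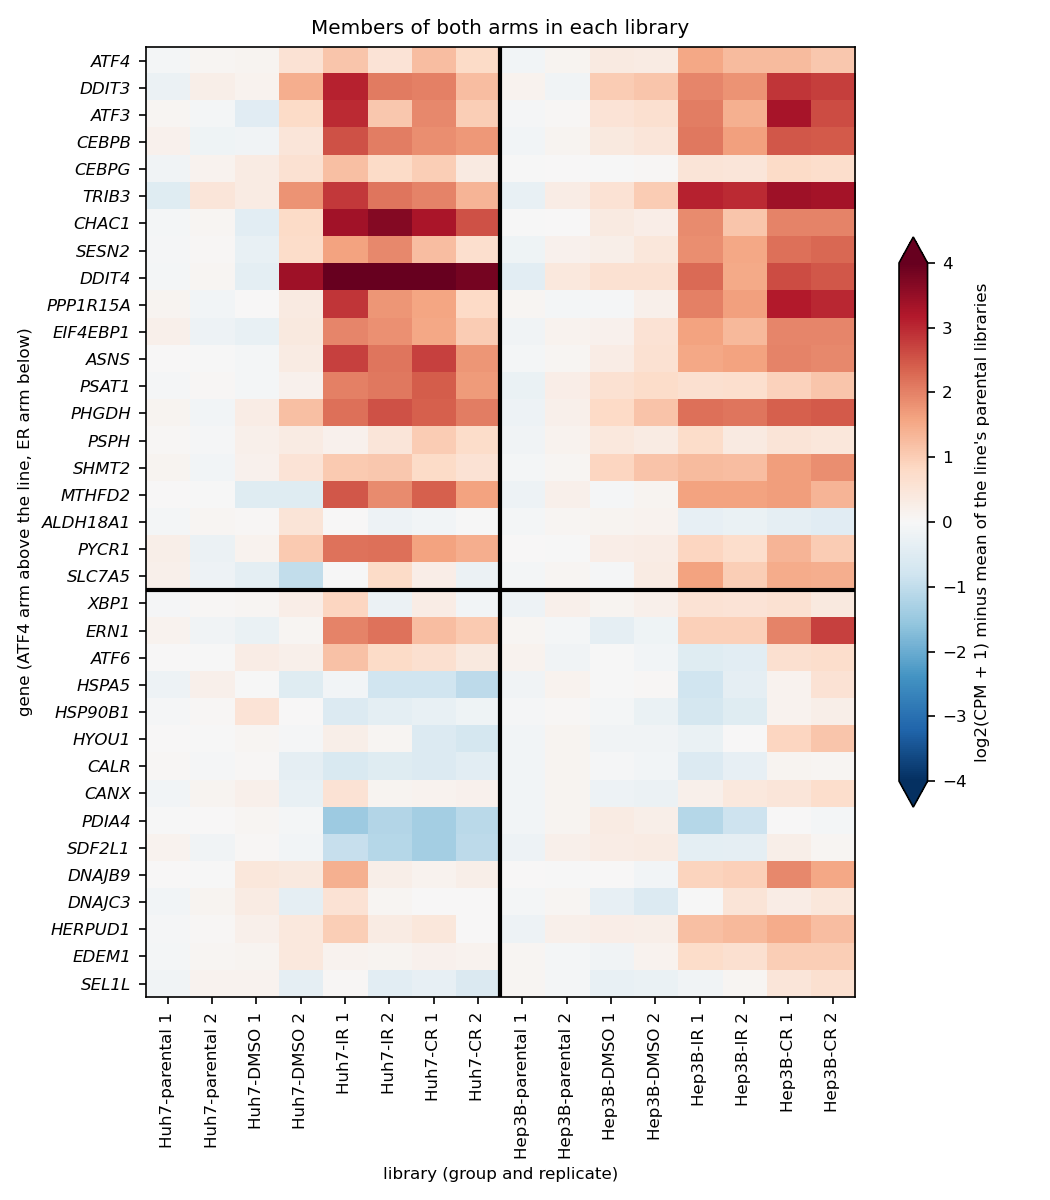
Log2(CPM + 1) of each of the 35 genes (rows) in each of the 16 libraries (columns), minus the mean of the 2 parental libraries of the same line. The genes of the ATF4 arm above the black line are mostly red in IR and CR libraries of both lines, whereas the ER arm below it holds both red and blue genes.

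Averaged over the 20 genes of the ATF4 arm, log2(CPM + 1) lay 2.03 and 1.78 above the parental mean in the 2 Huh7-IR libraries and 1.78 and 1.25 above it in Huh7-CR. In Hep3B the averages were 1.55 and 1.29 in IR and 1.88 and 1.80 in CR libraries. Replicates of a group spread by a pooled SD of 0.259 around their mean. The parental libraries lay up to 0.11 from 0, on either side of it by construction, since their own mean was subtracted. The DMSO libraries averaged -0.061 and 0.70 in Huh7 and 0.37 and 0.53 in Hep3B. Every resistant library lay above the parental and DMSO libraries of its line. The ER arm averaged 0.29 and -0.053 in IR libraries and -0.14 and -0.21 in CR libraries of Huh7, and 0.0074 and 0.18 in IR libraries and 0.69 and 0.76 in CR libraries of Hep3B, with a pooled SD of 0.113. Of the 8 resistant libraries, both of Hep3B-CR lay furthest above their parental cells in this arm. These averages describe the lists, and no test was run on them.

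**Figure D2:**
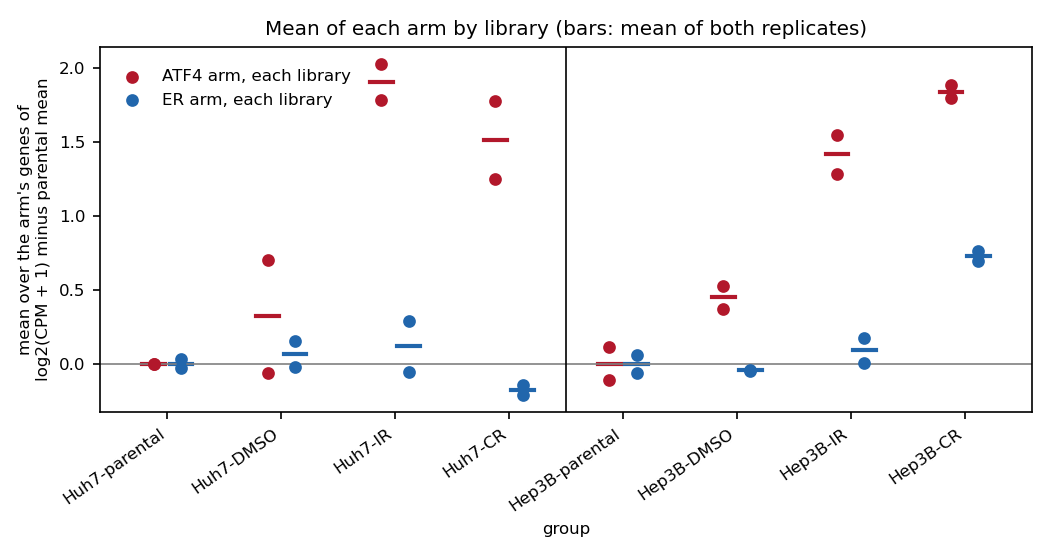
Mean over the genes of the ATF4 arm (red, 20 genes) and of the ER arm (blue, 15 genes) of log2(CPM + 1) minus the mean of the line's parental libraries, by group, with a point for each library and a bar for the mean of both replicates. The resistant libraries lie between 1.25 and 2.03 for the ATF4 arm, and the ER arm lies between -0.21 and 0.29 except in Hep3B-CR, at 0.69 and 0.76.

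Among the transcription factors of the ATF4 arm, ATF4 (chromosome 22, 39915700 to 39918688 in GRCh37) was at 295 and 334 CPM in Huh7 parental, 675 and 459 in Huh7-IR and 743 and 538 CPM in Huh7-CR cells. In Hep3B it was at 280.3 and 333 CPM in parental, 885 and 731 in IR and 739.8 and 652 CPM in CR cells. The resistant libraries were all above the parental ones, and ATF4 rose by 0.82, 1.01, 1.39 and 1.18 on the log2 scale (SE 0.22, limma adjusted p of at most 0.00672). ATF4 is controlled in large part by translation, which these libraries do not measure.

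DDIT3 encodes CHOP, a factor tied to cell death under lasting ER stress. It was at 7.78 and 11.1 CPM in Huh7 parental, 86.4 and 42.9 in Huh7-IR and 40.3 and 23.5 CPM in Huh7-CR cells, and at 18.3 and 15.2, then 67.8 and 60.1, then 129 and 118 CPM in the corresponding Hep3B cells. No resistant library overlapped the parental ones, and the log2 fold changes were 2.58, 1.62, 1.87 and 2.81 (SE 0.40, limma adjusted p of at most 0.00662). CEBPB, a partner of these factors, held 4.93 and 3.59 CPM in Huh7 parental, 29.3 and 20.7 in Huh7-IR and 17.8 and 16.5 CPM in Huh7-CR cells. In Hep3B cells it held 5.28 and 6.16, then 28.0 and 19.9, then 36.5 and 36.0 CPM. CEBPB was thus low in parental cells and rose by 2.30, 1.80, 1.88 and 2.47 (SE 0.25, limma adjusted p of at most 0.000150). ATF3, a stress-induced repressor, was called higher in 3 of the 4 comparisons and missed the threshold in Huh7-CR cells (1.44, limma adjusted p = 0.0509), its Huh7-IR replicates being 141 and 37.0 CPM. CEBPG, which pairs with ATF4, changed by 0.98, 0.68, 0.50 and 0.74, and the Hep3B-IR value was not called.

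Without Huh7-IR replicate 1 the ATF4 increase in Huh7-IR cells was 0.55 and no longer called. The DDIT3 increase in Huh7-CR cells lost its call without parental replicate 1 (1.39) and without CR replicate 1 (1.25).

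The feedback and stress effectors of the ATF4 arm held its largest changes. TRIB3, a pseudokinase that binds ATF4 and dampens it, was at 57.6 and 113 CPM in Huh7 parental, 580.4 and 359 in Huh7-IR and 322 and 208 CPM in Huh7-CR cells. Hep3B cells held 51.4 and 78.2 CPM in parental, 548 and 513 in IR and 670.5 and 649 CPM in CR cells. All resistant libraries lay above the parental ones, and TRIB3 rose by 2.49, 1.67, 3.04 and 3.36 (SE 0.44, limma adjusted p of at most 0.00964). CHAC1 (chromosome 15, 41245160 to 41248710 in GRCh37) degrades glutathione and was at 2.42 and 2.80 CPM in Huh7 parental, 35.7 and 44.9 in Huh7-IR and 33.6 and 19.9 CPM in Huh7-CR cells. Its Hep3B values were 14.4 and 14.9 CPM in parental, 56.8 and 32.4 in IR and 60.6 and 60.3 CPM in CR cells. CHAC1 thus started lower in Huh7 and rose there by 3.51 and 2.90, and in Hep3B by 1.49 and 1.97 (SE 0.36, limma adjusted p of at most 0.00715).

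DDIT4 (REDD1), an inhibitor of mTORC1, was at 2.62 and 3.07 CPM in Huh7 parental, 75.6 and 103 in Huh7-IR and 81.7 and 53.1 CPM in Huh7-CR cells. In Hep3B the values were 20.2 and 36.7 CPM in parental, 134 and 79.7 in IR and 173 and 157 CPM in CR cells. No resistant library overlapped the parental ones, and the increase passed the test in Huh7-IR (4.54), Huh7-CR (4.12) and Hep3B-CR cells (2.55), with an SE of 0.82. It did not pass in Hep3B-IR cells (1.88, limma adjusted p = 0.102). The same 1.88 was called at an unadjusted p, with Hep3B libraries only and with the groups compared only. The SE of DDIT4 was the largest of all members, and Huh7-DMSO replicate 2 held 39.5 CPM of it where replicate 1 held 1.93 CPM. SESN2, an activator of amino acid and redox stress control, was at 14.1 and 15.2 CPM in Huh7 parental, 46.9 and 58.8 in Huh7-IR and 35.5 and 23.8 CPM in Huh7-CR cells, and at 23.1 and 30.0, then 97.5 and 78.1, then 126 and 135 CPM in the corresponding Hep3B cells. It rose by 1.77, 0.94, 1.69 and 2.26 (SE 0.29, limma adjusted p of at most 0.0218).

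PPP1R15A (GADD34) directs a phosphatase to eIF2α and so ends the response. It was at 57.9 and 50.7 CPM in Huh7 parental, 397 and 187 in Huh7-IR and 164 and 95.2 CPM in Huh7-CR cells, and at 42.7 and 38.6, then 166 and 129, then 373 and 336 CPM in parental, IR and CR cells of Hep3B. The log2 fold changes were 2.31, 1.19, 1.82 and 3.09 (SE 0.31, limma adjusted p of at most 0.00888), and the lines took opposite orders, IR above CR in Huh7 and CR above IR in Hep3B. EIF4EBP1, which represses cap-dependent translation, was at 39.9 and 30.3 CPM in Huh7 parental, 137 and 127 in Huh7-IR and 104 and 71.1 CPM in Huh7-CR cells. The Hep3B libraries were at 46.4 and 55.4, then 157 and 126, then 199 and 200.1 CPM. It rose by 1.89, 1.28, 1.45 and 1.95 (SE 0.25, limma adjusted p of at most 0.00138).

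Some calls of these effectors were lost without a single library or in another fit. When the Huh7 libraries alone were fitted, TRIB3, SESN2, PPP1R15A, DDIT3 and HSPA5 kept their fold change in Huh7-CR cells and lost the call. In Huh7-CR cells, TRIB3 was no longer called without parental replicate 1 (1.19) or CR replicate 1 (1.36), PPP1R15A without parental replicate 2 (1.10) or CR replicate 1 (0.80), and SESN2 without parental replicate 1 (0.89), parental replicate 2 (0.99) or CR replicate 1 (0.66). In Hep3B cells, CHAC1 lost its IR call without IR replicate 1 (1.10), and DDIT4 lost its CR call without parental replicate 1 (2.14), parental replicate 2 (2.97), CR replicate 1 (2.48) or CR replicate 2 (2.62).

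Genes of amino acid and one-carbon metabolism made up 9 members, of which 6, 7, 7 and 7 were called higher and none lower. Of all genes tested, 31.1%, 20.9%, 15.7% and 20.0% were called higher and 17.8%, 13.6%, 11.4% and 12.3% lower. ASNS (chromosome 7, 97480989 to 97501854 in GRCh37), which makes asparagine, was at 106 and 103 CPM in Huh7 parental, 699 and 470.4 in Huh7-IR and 703 and 362 CPM in Huh7-CR cells. Hep3B values were 156 and 173 CPM in parental, 480.3 and 508 in IR and 657 and 632 CPM in CR cells. No resistant library overlapped the parental ones of its line, and ASNS rose by 2.44, 2.26, 1.58 and 1.96 (SE 0.27, limma adjusted p of at most 0.000825).

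The serine pathway runs from PHGDH through PSAT1 to PSPH. PHGDH, its entry enzyme, was at 69.2 and 60.4 CPM in Huh7 parental, 300.2 and 379.9 in Huh7-IR and 345 and 269.8 CPM in Huh7-CR cells, and at 38.7 and 51.9, then 209 and 201, then 239.9 and 252 CPM in the corresponding Hep3B cells. Its increases were close to each other in all 4 resistant groups, at 2.37, 2.22, 2.17 and 2.43 (SE 0.26, limma adjusted p of at most 7.75e-05). PSAT1 was at 178 and 193 CPM in Huh7 parental, 751 and 808 in Huh7-IR and 995 and 606 CPM in Huh7-CR cells, and at 258 and 379.6, then 487 and 497, then 592 and 678 CPM in parental, IR and CR cells of Hep3B. The change of PSAT1 was larger in Huh7, at 2.06 and 2.06, than in Hep3B, at 0.65 and 1.02 (SE 0.22, limma adjusted p of at most 0.0394). PSPH, the last enzyme, was called in Huh7-CR cells alone, with log2 fold changes of 0.33, 0.87, 0.55 and 0.48.

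One-carbon enzymes of the mitochondria rose as well. SHMT2, which takes the carbon from serine, was at 137 and 117 CPM in Huh7 parental, 259.8 and 268 in Huh7-IR and 216 and 188 CPM in Huh7-CR cells, and at 138 and 151, then 347 and 338, then 464 and 531 CPM in the Hep3B groups in the same order. MTHFD2, which passes it on to formate, was at 103 and 99.2, then 568 and 376, then 537 and 310.2 CPM in Huh7 and at 163 and 214, then 578 and 576, then 603 and 486 CPM in Hep3B. SHMT2 rose by 1.06, 0.67, 1.24 and 1.78 (SE 0.16, limma adjusted p of at most 0.00455) and MTHFD2 by 2.18, 2.00, 1.62 and 1.53 (SE 0.24, limma adjusted p of at most 0.000480).

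Proline synthesis gave a split result. PYCR1, its last enzyme, was at 65.0 and 46.6 CPM in Huh7 parental, 251 and 257 in Huh7-IR and 172 and 153 CPM in Huh7-CR cells, and at 39.9 and 39.6, then 72.2 and 65.1, then 103 and 80.7 CPM in the Hep3B groups. It rose by 2.18, 1.54, 0.77 and 1.18 (SE 0.25, limma adjusted p of at most 0.0301). ALDH18A1, which makes the first committed intermediate, was the 1 member of the arm with a log2 fold change under 0 in every comparison, at -0.094, -0.064, -0.31 and -0.41, and it was called in none. SLC7A5, the carrier of large neutral amino acids, was called higher in Hep3B-IR (1.30) and Hep3B-CR cells (1.47) and overlapped the parental libraries in Huh7, at 0.38 in IR and 0.015 in CR cells.

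Leaving out 1 library ended some of these calls. In Hep3B-IR cells the PYCR1 increase, from 0.70 to 0.84 without either replicate of IR or parental cells, was not called without any of the 4 libraries, and that of PSAT1 was not called without parental replicate 1 (0.37), IR replicate 1 (0.67) or IR replicate 2 (0.64). The PSAT1 call in Hep3B-IR cells was also lost with TMM factors (0.59), edgeR (0.56), DESeq2 (0.54) and parental and DMSO cells together as reference (0.31), and with the fold unchanged when no filter was set or only the groups compared were fitted. In Huh7-CR cells the SHMT2 increase was 0.56 without parental replicate 2 and 0.57 without CR replicate 1, below the threshold of 0.58 in both. It was also below 0.58 with TMM factors (0.571), edgeR (0.576) and parental and DMSO cells together as reference (0.48).

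**Figure D3:**
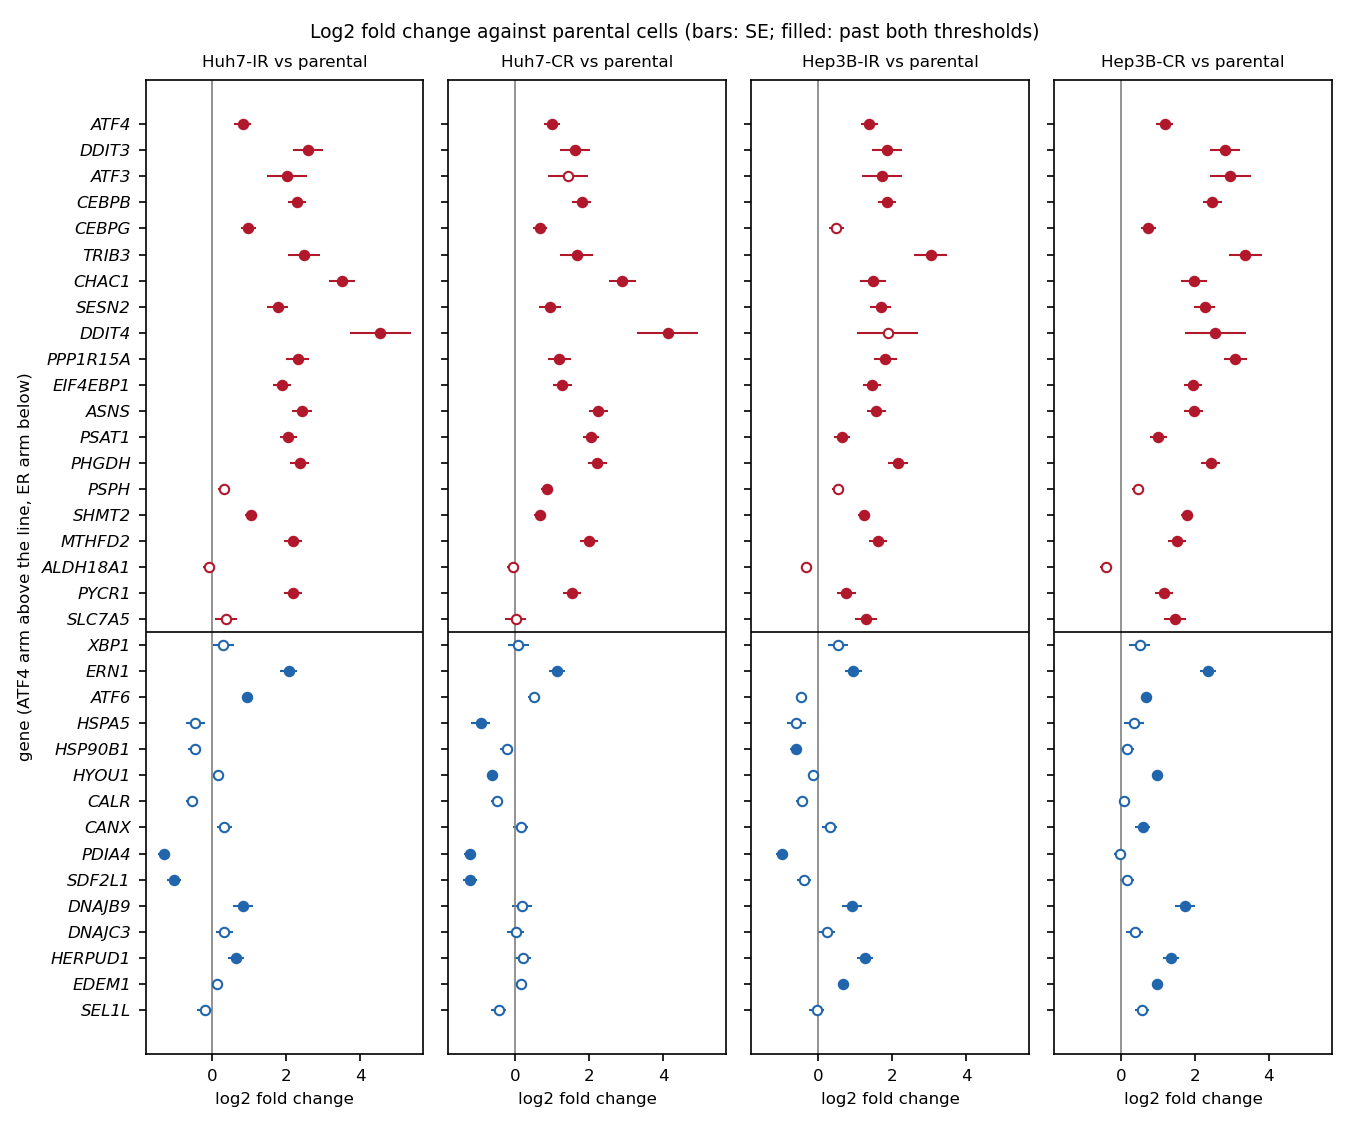
Log2 fold change of each of the 35 genes against the parental cells of the same line in the 4 resistant groups, with its SE as a bar, red for the ATF4 arm and blue for the ER arm, and filled where the gene passed both thresholds. The ATF4 arm runs up to 4.54 for DDIT4 in Huh7-IR cells, and the ER arm runs from -1.31 for PDIA4 in Huh7-IR to 2.35 for ERN1 in Hep3B-CR cells.

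In the ER arm, ERN1 (chromosome 17, 62116440 to 62208179 in GRCh37), which encodes the sensor IRE1, was at 9.72 and 7.74 CPM in Huh7 parental, 37.4 and 42.3 in Huh7-IR and 21.8 and 18.8 CPM in Huh7-CR cells. In Hep3B it was at 15.5 and 13.9 CPM in parental, 29.5 and 29.3 in IR and 60.9 and 103 CPM in CR cells. It was the 1 gene of the ER arm called in all 4 comparisons, and it rose by 2.08, 1.14, 0.96 and 2.35 (SE 0.23, limma adjusted p of at most 0.00682). Without Hep3B parental replicate 2 the Hep3B-IR value was 0.89 and was not called. XBP1, whose mRNA IRE1 cleaves to give the active factor, was at 487 and 512 CPM in Huh7 parental, 902 and 422 in Huh7-IR and 615 and 462 CPM in Huh7-CR cells, and at 312 and 408, then 528 and 517, then 549 and 471 CPM in the Hep3B groups. The total XBP1 level was called in no comparison, at 0.31, 0.10, 0.55 and 0.51 (SE 0.28, limma adjusted p of at least 0.155), although without Huh7-IR replicate 2, at 422 CPM, the Huh7-IR value was 0.85 and was called. Gene counts cannot separate the spliced from the unspliced XBP1 mRNA. ATF6 was called higher in Huh7-IR (0.96) and Hep3B-CR cells (0.68) and was at 0.51 in Huh7-CR and -0.44 in Hep3B-IR cells.

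The chaperones and cochaperones of the ER comprised 9 genes, of which 1, 0, 1 and 3 were called higher and 2, 4, 2 and 0 lower. Of all genes tested, 31.1%, 20.9%, 15.7% and 20.0% were called higher and 17.8%, 13.6%, 11.4% and 12.3% lower. HSPA5 (chromosome 9, 127997132 to 128003661 in GRCh37) encodes BiP, the main ER chaperone and the standard readout of ER stress, and was at 574 and 774 CPM in Huh7 parental, 622 and 380.5 in Huh7-IR and 379.5 and 322 CPM in Huh7-CR cells. In Hep3B it was at 609 and 743 CPM in parental, 386 and 519 in IR and 742 and 997 CPM in CR cells. HSPA5 fell in Huh7-CR cells, with a log2 fold change of -0.93 (SE 0.26, limma adjusted p = 0.0127), and the values of -0.45, -0.59 and 0.35 in the other groups did not pass the test. The parental replicates themselves differed, and without Huh7 parental replicate 2 the Huh7-CR value was -0.71 and without CR replicate 2 it was -0.81, neither of them called. Without Huh7-IR replicate 1 the Huh7-IR value was -0.81 and was called.

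PDIA4 (chromosome 7, 148700154 to 148725754 in GRCh37), a disulfide isomerase, showed the largest decrease of either arm. It was at 417 and 425 CPM in Huh7 parental, 154 and 186 in Huh7-IR and 164 and 197 CPM in Huh7-CR cells, and at 350.3 and 400.1, then 171 and 212, then 379 and 353 CPM in parental, IR and CR cells of Hep3B. PDIA4 fell in Huh7-IR (-1.31), Huh7-CR (-1.22) and Hep3B-IR cells (-0.97), with an SE of 0.15 and a limma adjusted p of at most 0.000394, while the Hep3B-CR libraries overlapped the parental ones, at -0.033. SDF2L1, which works with BiP and an ER J protein, was at 8.51 and 6.87 CPM in Huh7 parental, 3.60 and 2.92 in Huh7-IR and 2.35 and 3.15 CPM in Huh7-CR cells. In Hep3B it was at 7.47 and 10.4 CPM in parental, 6.46 and 6.69 in IR and 10.6 and 9.41 CPM in CR cells. SDF2L1 fell in both resistant Huh7 groups, at -1.03 and -1.21 (SE 0.20, limma adjusted p of at most 0.000831), and was at -0.37 and 0.16 in those of Hep3B, which were not called.

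Other chaperones were called in some groups and not in others. HSP90B1 (GRP94) fell by 0.59 in Hep3B-IR cells and was at -0.47, -0.23 and 0.18 in the other groups, which were not called. HYOU1 (GRP170) fell by 0.63 in Huh7-CR cells, rose by 0.98 in Hep3B-CR cells and was at 0.16 and -0.12 in the IR cells of Huh7 and Hep3B. The lectin chaperones CALR and CANX were high in every group, and CANX alone was called, in Hep3B-CR cells (0.60). DNAJB9 (ERdj4), a cochaperone of BiP induced through IRE1, rose by 0.83, 0.92 and 1.73 in every group but Huh7-CR. Its Huh7-IR replicates were 208 and 91.3 CPM against 78.1 and 75.8 CPM in parental cells. DNAJC3 (P58IPK) was called in no comparison, with values from 0.021 to 0.38.

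Of the 3 degradation factors, HERPUD1 and EDEM1 rose in both resistant Hep3B groups. HERPUD1, a scaffold of the ER degradation complex that both ATF4 and ATF6 are known to induce, was at 103 and 111 CPM in Huh7 parental, 212 and 134 in Huh7-IR and 146 and 107 CPM in Huh7-CR cells, and at 51.4 and 69.7, then 140.3 and 149.8, then 168 and 143 CPM in the Hep3B groups. Its log2 fold changes were 0.65, 0.23, 1.26 and 1.36, and the Huh7-CR value was not called. EDEM1, a lectin that extracts misfolded glycoproteins, rose by 0.69 and 0.97 in Hep3B and was at 0.13 and 0.15 in Huh7. SEL1L was called in none, with values from -0.44 to 0.57.

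**Figure D4:**
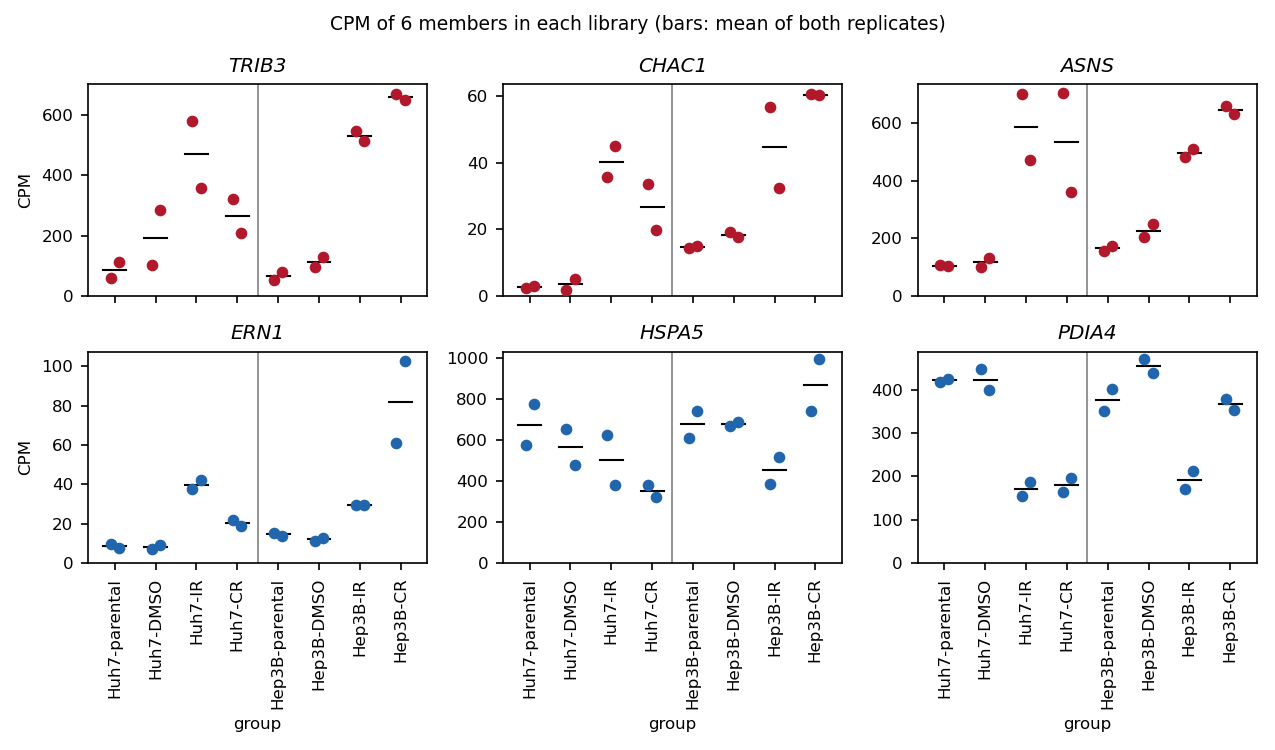
CPM of TRIB3, CHAC1 and ASNS of the ATF4 arm (red) and of ERN1, HSPA5 and PDIA4 of the ER arm (blue) by group, with a point for each of the 2 libraries and a bar for their mean on a linear axis from 0. The ATF4 targets and ERN1 are higher in every resistant group than in its parental cells, and PDIA4 is at most 212 CPM in Huh7-IR, Huh7-CR and Hep3B-IR cells and at 379 and 353 CPM in Hep3B-CR cells.

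The scaling of the libraries changed the counts of the ER arm in Huh7-IR cells. The median of the ATF4 arm in Huh7-IR cells was 1.93 with TMM factors and 1.99 after quantile normalization, and 17 and 17 of its 20 genes were called higher. The ER arm in Huh7-IR cells, with 4 genes higher and 2 lower on CPM, had 2 higher and 4 lower with TMM factors, and its median changed sign, from 0.16 to -0.034. On CPM, 2 of its genes were higher without either Huh7 parental replicate or without IR replicate 1.

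The change in resistant cells, taken as the mean of IR and CR cells minus parental cells, was compared between the lines in the same limma fit. In the ATF4 arm the change was higher in Huh7 for 3 genes and higher in Hep3B for 2, with 15 not called, and in the ER arm 1 gene was relatively higher in Huh7 and 5 relatively higher in Hep3B. The background was 16.3% and 13.1% of all genes tested in these directions. Of the ATF4 arm, the difference (Huh7 minus Hep3B, log2) was 1.47 for CHAC1 (SE 0.44, limma adjusted p = 0.0227), 1.23 for PSAT1 (SE 0.27, limma adjusted p = 0.00471) and 0.89 for PYCR1 (SE 0.30, limma adjusted p = 0.0405). It was -1.19 for SLC7A5 (SE 0.36, limma adjusted p = 0.0248) and -0.65 for SHMT2 (SE 0.19, limma adjusted p = 0.0217). The largest difference in size of the arm was that of DDIT4, at 2.11, with a 95% confidence interval of -0.080 to 4.31, which passed 0.58 and not the test (limma adjusted p = 0.133), and TRIB3 (-1.12, limma adjusted p = 0.139), PPP1R15A (-0.71), SESN2 (-0.62) and ATF3 (-0.61) also failed the adjusted p alone. For PHGDH the difference was -0.0049, with a 95% confidence interval of -0.70 to 0.69.

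Of the ER arm, the difference was -1.02 for SDF2L1 (SE 0.24, limma adjusted p = 0.00748), -0.87 for HERPUD1, -0.76 for PDIA4, -0.69 for EDEM1 and -0.66 for HYOU1, and 0.62 for ATF6. The interval for HSPA5 was -1.27 to 0.12 around -0.57, and for ERN1 it was -0.66 to 0.56 around -0.050. ER arm differences lay under 0 for 14 of 15 genes, and their median was -0.57, against -0.061 in the ATF4 arm and 0.049 over all genes tested. Without Huh7-IR replicate 1, 8 ER arm genes were relatively higher in Hep3B, and without Hep3B parental replicate 1, 2 were. ATF6 was not called without either Huh7 parental replicate, Huh7-IR replicate 1, Huh7-CR replicate 1 or Hep3B parental replicate 1. PYCR1 was called without Hep3B-CR replicate 1 and Huh7 parental replicate 1 alone among the 12 libraries left out in turn, CHAC1 was not called without any of the 4 parental libraries, at 1.40 to 1.55, and SDF2L1 was not called without Hep3B parental replicate 1 (-0.80). SHMT2 was not called without Huh7 parental replicate 1 (-0.54) or Hep3B parental replicate 1 (-0.58), nor was SLC7A5 without either of them. With the DMSO libraries as reference the difference of SHMT2 was -0.019, that of PYCR1 0.58 and that of PDIA4 -0.49, none of them called, and that of MTHFD2, 1.03, was called.

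**Figure D5:**
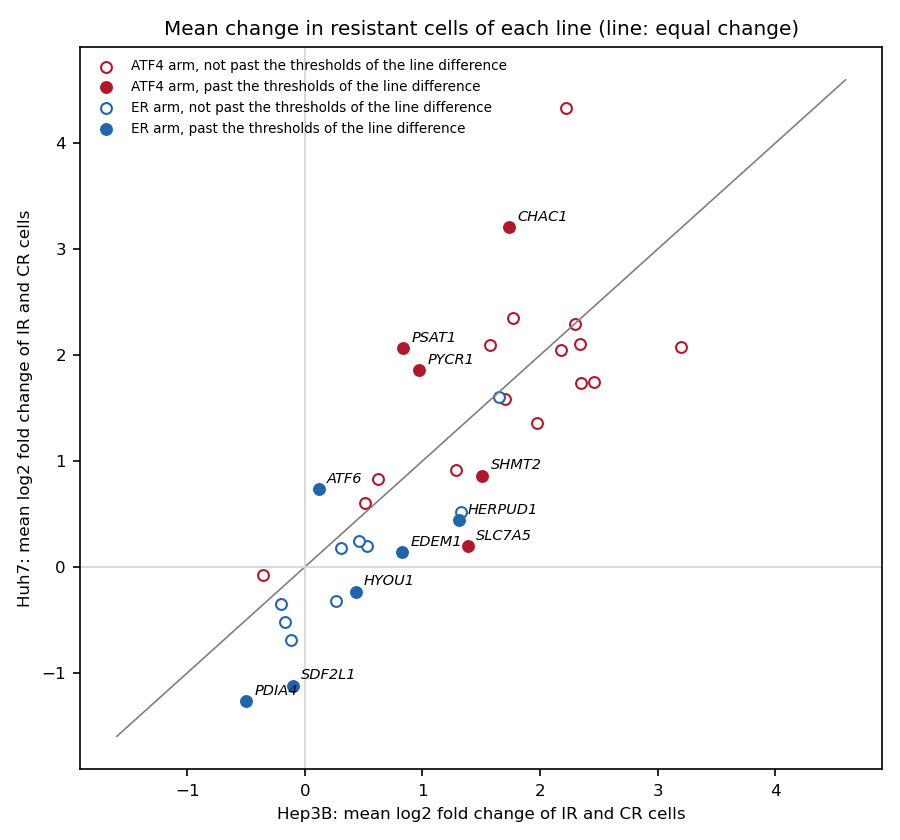
Mean log2 fold change of the 2 resistant groups in Hep3B (horizontal) and in Huh7 (vertical) for each of the 35 genes, red for the ATF4 arm and blue for the ER arm, filled and named where the difference between the lines passed both thresholds. CHAC1, PSAT1, PYCR1 and ATF6 lie above the line of equal change, and SHMT2, SLC7A5 and the ER arm genes HERPUD1, EDEM1, HYOU1, PDIA4 and SDF2L1 lie below it.

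CR and IR cells of each line were also compared directly, which involves no parental library. In Hep3B, 6 of 15 ER arm genes and 1 of 20 ATF4 arm genes were higher in CR than in IR cells and none was lower, against 6.41% and 5.33% of all genes tested. The ER genes were ERN1 (1.40, SE 0.23), ATF6 (1.12, SE 0.14), HYOU1 (1.10, SE 0.14), HSPA5 (0.94, SE 0.26), PDIA4 (0.94, SE 0.15) and HSP90B1 (0.77, SE 0.17), with limma adjusted p from 0.000374 for HYOU1 to 0.0329 for HSPA5. For HYOU1 the libraries held 275 and 333 CPM in Hep3B-IR and 592 and 717 CPM in Hep3B-CR cells, and for HSP90B1 726 and 835 CPM in the former and 1282 and 1369 CPM in the latter. The ER arm as a whole had a median of 0.60 with 14 of 15 genes above 0, the ATF4 arm a median of 0.39 with 16 of 20, and all genes tested a median of 0.035. The ATF4 arm gene called was PPP1R15A (1.27, limma adjusted p = 0.0196). Without either Hep3B-CR replicate 4 of these 7 members were called.

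In Huh7 the count of members called was close to the share of all genes and is not read as a result about the members. No member was higher in Huh7-CR than in Huh7-IR cells and 3 were lower, against 5.43% and 8.23% of all genes tested. These were PPP1R15A (-1.12, limma adjusted p = 0.0318), ERN1 (-0.94, limma adjusted p = 0.0184) and HYOU1 (-0.79, limma adjusted p = 0.00420), the last at 335 and 298 CPM in Huh7-IR and 191 and 173 CPM in Huh7-CR cells. The ER arm median was -0.24 and that of all genes -0.091. Without Huh7-IR replicate 2 there were 9 such members, and without Huh7-CR replicate 2 there were 0 by limma, with 8 members at an unadjusted p under 0.05 when all libraries were kept. At that unadjusted p, 1136 of all genes tested were higher in Huh7-CR than in Huh7-IR cells and 2012 lower. Whether CR minus IR differs between the lines was not tested.

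Between DMSO and parental cells, called were 0 members in Huh7 and 1 in Hep3B, against 4.83% and 1.58% of all genes tested. DESeq2 called 2 members in each line. Of all genes tested it called 1284 higher and 549 lower in Huh7 and 319 and 225 in Hep3B. With an unadjusted p under 0.05, limma called 4 members in each line. Of all genes tested it then called 1603 higher and 568 lower in Huh7 and 845 and 365 in Hep3B. The Hep3B gene was SHMT2, at 138 and 151 CPM in parental and 259.7 and 321 CPM in DMSO cells (1.00, SE 0.16, limma adjusted p = 0.00856), and it was not called without parental replicate 1 or DMSO replicate 2. In Huh7 the calls depended on which DMSO library was kept, for the members and for all genes tested alike. In the DMSO cells, with replicate 1 before replicate 2, the transcription factors stood with ATF4 at 339.6 and 473 CPM in Huh7 and 395 and 383 CPM in Hep3B, DDIT3 at 10.3 and 27.3 CPM in Huh7 and 34.7 and 37.5 CPM in Hep3B and CEBPB at 3.78 and 6.36 CPM in Huh7 and 7.86 and 8.28 CPM in Hep3B. Of the effectors, the DMSO libraries held TRIB3 at 101 and 285 CPM in Huh7 and 95.4 and 129 CPM in Hep3B, CHAC1 at 1.70 and 5.14 CPM in Huh7 and 19.0 and 17.8 CPM in Hep3B and SESN2 at 11.7 and 25.1 CPM in Huh7 and 31.3 and 36.4 CPM in Hep3B. They held DDIT4 at 1.93 and 39.5 CPM in Huh7 and 41.7 and 42.2 CPM in Hep3B, PPP1R15A at 55.3 and 69.1 CPM in Huh7 and 39.1 and 46.7 CPM in Hep3B and EIF4EBP1 at 28.2 and 46.3 CPM in Huh7 and 57.1 and 75.7 CPM in Hep3B. Huh7-DMSO replicate 2 was above replicate 1 in all 9 of these genes, and the Hep3B-DMSO replicates lay closer together, by their difference in CPM, in 8 of them. Of the amino acid genes, the levels were ASNS at 99.8 and 131 CPM in Huh7 and 202 and 250.2 CPM in Hep3B, PSAT1 at 176 and 209 CPM in Huh7 and 480.5 and 521 CPM in Hep3B and PHGDH at 79.1 and 151 CPM in Huh7 and 78.2 and 100.1 CPM in Hep3B. One-carbon and proline genes had MTHFD2 at 72.4 and 72.1 CPM in Huh7 and 182 and 200.4 CPM in Hep3B and PYCR1 at 60.3 and 115 CPM in Huh7 and 48.0 and 49.4 CPM in Hep3B. SHMT2, named above for Hep3B, was at 143 and 187 CPM in Huh7-DMSO cells. In the ER arm there were XBP1 at 523 and 606 CPM in Huh7 and 382 and 413 CPM in Hep3B, ERN1 at 7.03 and 9.15 CPM in Huh7 and 11.2 and 12.9 CPM in Hep3B and HSPA5 at 654 and 477 CPM in Huh7 and 667 and 689 CPM in Hep3B. The other chaperones given per library were PDIA4 at 448 and 398 CPM in Huh7 and 471 and 439 CPM in Hep3B and SDF2L1 at 7.89 and 7.08 CPM in Huh7 and 10.9 and 11.3 CPM in Hep3B. In the ER arm Huh7-DMSO replicate 2 was above replicate 1 for XBP1 and ERN1 and below it for HSPA5, PDIA4 and SDF2L1. The ATF4 arm averaged -0.061 and 0.70 above the parental mean in these libraries, and 10 hypoxia-induced genes summed to 378 and 1124 CPM in replicates 1 and 2, and the part of either list in the other was not tested. In Hep3B-DMSO cells the ATF4 arm averaged 0.37 and 0.53, with all 20 genes above 0 and a median of 0.37, and the ER arm -0.040 and -0.050, while the hypoxia-induced genes summed to 243 and 488 CPM in replicates 1 and 2.

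Taking DMSO cells in place of parental cells lowered the median of the ATF4 arm to 1.70, 0.98, 1.13 and 1.51. With this reference 16, 12, 11 and 16 of its 20 genes were called higher. Of the 15019 genes tested, 4250, 2829, 2599 and 2925 were. Calls of named members lost with this reference were ATF4 in Huh7-IR cells (0.47), and DDIT3 (0.83), TRIB3 (0.61), SESN2 (0.73), SHMT2 (0.30) and HSPA5 (-0.68) in Huh7-CR cells. In Hep3B-IR cells DDIT3 (0.81), SHMT2 (0.25 in place of 1.24), PYCR1 (0.49) and PSAT1 (-0.024) were lost, and in Hep3B-CR cells DDIT4 (1.95) and PSAT1 (0.34). The decrease of SDF2L1 in Hep3B-IR cells was called with it (-0.68).

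Levels of different genes were compared per kilobase of the canonical transcript. In parental cells of both lines CALR was the most abundant member, at 775 CPM per kb in Huh7 and 638 in Hep3B, followed by HSP90B1 and CANX. ATF4 stood at 222 and 216 CPM per kb, HSPA5 at 172 and 172, and ERN1 was the lowest of the 35 in both, at 1.11 and 1.86. The inducible genes CHAC1, DDIT4, CEBPB and SESN2 were among the 9 lowest in both lines. Parental Huh7 and Hep3B cells differed in 13 members, against 42.6% of all genes tested, and the largest differences (Huh7 minus Hep3B, log2) were -2.88 for DDIT4 and -2.12 for CHAC1 below 0 and 1.26 for DNAJB9 above it. Without Hep3B parental replicate 2, 8 members were called.

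Other genes of the same pathways, from lists that hold none of the 35 members, were counted the same way. These lists too were chosen with earlier results of these data known, so their counts are not independent support. For these lists and those of the next paragraph, 31.1%, 20.9%, 15.7% and 20.0% of all genes tested were called higher. Called lower were 17.8%, 13.6%, 11.4% and 12.3% of all genes tested. Among 30 further ATF4 targets that were tested, 22, 19, 23 and 26 were called higher and 1, 0, 0 and 0 lower. The largest mean increases were those of ALDH1L2, a mitochondrial folate enzyme, at 5.41, 5.16, 4.07 and 4.31, STC2, a secreted glycoprotein, at 5.41, 4.77, 2.01 and 2.60, and SLC6A9, a glycine carrier, at 2.50, 1.99, 2.62 and 3.36. STC2 held 4.16 and 5.87 CPM in Huh7 parental and 244 and 261 CPM in Huh7-IR cells. SLC43A1, an amino acid carrier, was the 1 gene of this list called lower, at -0.95 in Huh7-IR cells. Of 10 aminoacyl-tRNA synthetases within the list, 6, 5, 6 and 8 were higher, and of 7 amino acid transporters 6, 5, 6 and 7 were. VLDLR, which is on this list, was also picked by the study from these libraries, so its increase of 1.45 to 2.14 is not independent of that choice.

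The mRNAs of the eIF2α kinases and of their regulators, 7 genes, were called higher for 2, 1, 0 and 1 and lower for 1, 0, 0 and 0. EIF2AK3, which encodes PERK, was at 0.53, 0.47, 0.52 and 0.17 and was called in none. Kinase activity is not visible in mRNA. Among 16 other ER folding genes, 3, 2, 2 and 5 were called higher and 7, 6, 3 and 1 lower. MANF, a secreted ER stress protein, fell in the 4 resistant groups, at -0.93, -0.75, -0.67 and -0.71, and CRELD2 fell in Huh7, at -1.50 and -1.15, and was at -0.52 and 0.075 in Hep3B. HSPA13 rose by 1.59, 1.51, 0.81 and 1.47 and DNAJC10, a disulfide reductase of the ER, by 1.05, 1.06, 0.78 and 1.39. Of 15 other degradation and unfolded protein response genes, 2, 1, 2 and 5 were called higher and 2, 2, 1 and 2 lower. SELENOS rose in Huh7-IR (0.82), Hep3B-IR (0.74) and Hep3B-CR cells (0.72), and VCP, the ATPase that pulls proteins out of the ER, fell in every group but Hep3B-IR, at -1.28, -0.98 and -0.61.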

How the data were processed

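Expression was measured by sequencing of poly(A)-enriched RNA in 16 libraries. With STAR, the authors aligned reads to hg19 keeping unique hits alone, counted reads over exons of RefSeq genes and deposited CPM, that is counts divided by the library total. Reads shared with near-identical copies such as processed pseudogenes were thereby lost. Without a strand setting being given in the sources used here, reads of overlapping antisense genes may be included. All CPM values were whole reads within 0.05 reads (100%), and edgeR on these reads called 4148 genes higher and 3532 lower in Huh7-IR cells. Of 26258 gene IDs, 26111 were matched to a symbol.

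Log2(CPM + 1) of the 15019 genes that reached 1 CPM in 2 or more libraries was fitted with limma 3.58.1 (R 4.3.3, mean-variance trend) over all 8 groups, with Benjamini-Hochberg adjustment over all genes tested. Because the study set no adjustment, its unadjusted p is given as an alternative. The others were edgeR 4.0.16 and DESeq2 1.42.0 on the recovered reads, other scalings, pseudocounts, filters, sample sets and references, and leaving out each library. The fit was tested on simulated data. The members and all lists were chosen with earlier results of these data known. Genes given with the value of every parental, IR and CR library, and with their DMSO values in the comparison of DMSO and parental cells, were ATF4, DDIT3, ASNS, XBP1, HSPA5, those called alike in all 4 resistant groups, the 3 highest and 3 lowest mean changes and the 3 lowest adjusted p of the line difference. From other lists at most the 3 highest and 3 lowest mean changes were named, with EIF2AK3, VLDLR, CD68, PTPRC, COL1A1, LUM and PDGFRB named beside them after their values were seen. FGF21 and DERL3 did not pass the filter. Samples were grouped by their titles, replicate numbers were not used as pairs, and no sample was left out.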

Additional observations from a re-analysis of the deposited data

Results flagged for a closer look

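The change in resistant cells (mean of IR and CR minus parental, log2) was compared between the lines in the interaction contrast of the limma fit. It differed for 11 of the 35 members, with 4 relatively higher in Huh7 and 7 relatively higher in Hep3B. Of all genes tested, 16.3% and 13.1% were called in these directions, and the count is not read as a result about the members. The difference is the signed change in Huh7 minus that in Hep3B. In the ATF4 arm it was 1.47 for CHAC1, 1.23 for PSAT1, 0.89 for PYCR1, -0.65 for SHMT2 and -1.19 for SLC7A5, the last with 4 of 4 resistant Hep3B libraries above the parental ones. In the ER arm it was 0.62 for ATF6, -0.66 for HYOU1, -1.02 for SDF2L1, -0.76 for PDIA4, -0.69 for EDEM1 and -0.87 for HERPUD1. A negative value can also be a larger decrease in Huh7, as for PDIA4 and SDF2L1. In ATF6, HYOU1 and PDIA4 CR cells of Hep3B were higher than IR cells in the direct comparison, so their mean stands for neither group.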

How the results depend on the processing

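Of 2020 log2 fold changes of the 20 members given per library, recomputed under the alternatives, 1925 kept their call or the lack of one. Among these 1925, 32 changed sign with no call under either fit. Of the rest, 79 lost the call, 15 gained one and 1 that had been called reversed. The value that reversed was PSAT1 in Hep3B-IR cells, at -0.0244 with DMSO cells as reference. The call, or the lack of one, held under every alternative in 70 of 100 pairs of gene and comparison. With DMSO as reference the ATF4 arm medians were 1.70, 0.975, 1.13 and 1.51 in the order used above, and the ER arm medians were -0.221 (Huh7-CR), 0.25 (Hep3B-IR) and 0.811 (Hep3B-CR). In Huh7-IR cells the ER arm median was -0.0343 with TMM factors, -0.0331 with edgeR and -0.0491 with DESeq2, with 4, 4 and 5 genes lower, and 2 genes were higher with TMM factors, DMSO as reference, libraries of the line only or groups compared only. In Hep3B-CR cells these tools gave ER arm medians of 0.454, 0.457 and 0.438. With parental and DMSO cells as reference the ER arm median was 0.108 in Hep3B-IR cells, with 1 gene lower (1 also after quantile normalization), and 0.705 in Hep3B-CR cells. With no minimum fold change, 4 ER arm genes were lower in Huh7-IR, 2 higher in Huh7-CR, and 1 ATF4 arm gene lower in Hep3B-CR cells.

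For the line difference, 0 ER arm genes were relatively higher in Huh7 with TMM factors, quantile normalization, edgeR, or either reference with DMSO. ATF4 arm genes relatively higher in Hep3B were 1 without a filter, 0 with DMSO and 1 with parental and DMSO as reference, where 5 were higher in Huh7. DMSO against parental cells gave 4 members in each line at an unadjusted p and 2 in each with DESeq2, and in Hep3B 3 with libraries of the line only and 0 with groups compared only. At an unadjusted p, CR against IR gave 8 members in Huh7 and 12 in Hep3B. Of all genes tested, 1136 were then higher and 2012 lower in Huh7, and 1482 and 1189 in Hep3B. With libraries of the line only it gave 0 and 11 members, and 119 and 75 of all genes in Huh7 and 1417 and 1045 in Hep3B. With groups compared only it gave 0 members in Huh7, and 0 of all genes in either direction. Hep3B-DMSO against parental cells gave 387 and 129 of all genes with libraries of the line only and 2 and 0 with groups compared only.

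Leaving out 1 library at a time, ATF4 arm genes higher in Huh7-CR ranged from 11 (without CR replicate 1) to 18 and their median from 1.13 to 1.74, and the ER arm median there from -0.110 to 0.129. ER arm genes higher ranged from 2 to 5 in Huh7-IR, 1 to 2 in Huh7-CR and 2 to 3 in Hep3B-IR cells, and lower from 2 to 4 in Huh7-CR and 1 to 2 in Hep3B-IR cells. The line difference ranged from 1 to 3 higher and 0 to 3 lower in the ATF4 arm, and 0 to 1 higher and 2 to 8 lower in the ER arm. Members called ranged from 0 to 7 for Huh7-DMSO, 0 to 1 for Hep3B-DMSO, 0 to 9 for CR against IR in Huh7, 4 to 5 in Hep3B, and 8 to 11 between parental cells. The numbers of all genes called shifted under the same omissions, and the cause of these shifts was not tested.

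Deviations of same-numbered libraries correlated from -0.22 to 0.44 over 28 pairs of groups. They were highest for Huh7-IR with Huh7-CR and for the DMSO groups of both lines (0.41). Among parental, IR and CR cells of Hep3B they were at 0.21 to 0.26. The other pairs lay on both sides of 0, from -0.22 (Huh7-parental with Huh7-DMSO) to 0.26 (Huh7-parental with Hep3B-IR). The numbers, which the labels tie to nothing shared, were therefore not used as pairs. A fit with a replicate block left 17, 18, 16 and 18 ATF4 arm genes higher and 4, 1, 4 and 7 ER arm genes higher. With crossed numbers, chosen after seeing the data, the replicate block gave 0 members for Hep3B-DMSO and 21 for Huh7-IR cells. Genes near 1 CPM, such as the Huh7 parental CHAC1 and DDIT4, have log2 fold changes limited by the pseudocount.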

Other observations

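Stress genes of other compartments were counted in the same comparisons and order. For these lists and those of the next paragraph, 31.1%, 20.9%, 15.7% and 20.0% of all genes tested were called higher. Called lower were 17.8%, 13.6%, 11.4% and 12.3% of all genes tested. Of 10 cytosolic heat shock genes, 1, 0, 0 and 0 were called higher and 4, 4, 2 and 4 lower, with medians of -0.46, -0.63, -0.64 and -0.76. HSP90AA1, the inducible cytosolic HSP90, fell in both resistant Huh7 groups, at -1.87 and -1.52, and was at -0.76 and -0.78 in Hep3B, which were not called. HSPA1A, whose reads are in part shared with the near-identical HSPA1B and so uncertain, fell in both resistant Hep3B groups, at -1.30 and -1.79. BAG3 rose by 0.62 in Huh7-IR cells.

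Of 8 mitochondrial stress genes, 1, 0, 1 and 2 were called higher and 2, 2, 1 and 1 lower. LONP1, a matrix protease, rose by 1.33, 0.82 and 1.57 in every group but Huh7-CR, and HSPE1, the cochaperonin of HSP60, fell in all 4, at -1.55, -0.87, -0.92 and -1.52. Hepatocyte secreted proteins were called higher for 0, 0, 1 and 0 and lower for 14, 13, 10 and 13 of 15 genes. Of 10 hypoxia-induced genes, 1, 2, 1 and 0 were higher and 1, 0, 0 and 0 lower. Endothelial markers had sums of 1.08 to 1.61 CPM in Huh7 parental and 0.215 to 0.431 CPM in Huh7-IR cells over 5 genes.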
